A study of Homo sapiens with 3 samples.

Results

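The genes described here make prostaglandins and leukotrienes, or respond to prostaglandin E2, and were measured in THP-1 macrophages. The 10 genes are PLA2G4A, PTGS1, PTGS2, PTGES, PTGER2, PTGER4, ALOX5, ALOX5AP, LTA4H, and LTC4S. They were taken by gene name from the array design, where 13 of 58201 transcript probes and 10 of 43317 gene names belong to them. PTGER2 and PTGER4 are receptors and not synthesis genes. THP-1 cells come from a human monocytic leukemia and take on a macrophage-like state under PMA, a phorbol ester. In all 3 conditions the cells had been given 100 ng/ml of PMA for 24 to 36 h and had then rested overnight in fresh medium. The Ctrl array held RNA of cells without further treatment. The IMQ array held RNA of cells given imiquimod, a ligand of toll-like receptor 7, and the IMQ+DMD array held RNA of cells pretreated with DMD, a benzenoid from the mushroom Antrodia cinnamomea, and then given IMQ. The label of that array reads IMQ+X, and X was taken to be DMD because the series names no other compound. The labels give 4 h for every array and no dose. Cells given DMD alone were not analysed here. Each condition had 1 culture and 1 array, so no value below carries a replicate error and no p-value was computed. The comparisons ask how IMQ changed these transcripts and how the cells given DMD before IMQ differed.

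Arachidonic acid is the common source of both families. Cytosolic phospholipase A2 cuts it out of membrane phospholipids. The cyclooxygenases then turn it into prostaglandin H2, which terminal synthases convert into prostaglandin E2 and other prostanoids. The alternative route runs through 5-lipoxygenase and its helper protein FLAP to leukotriene A4, which becomes either leukotriene B4, an attractant of neutrophils, or the cysteinyl leukotrienes. Macrophages are known to use both routes, and the inducible cyclooxygenase is a textbook response gene of toll-like receptors.

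The arrays carry oligonucleotide probes of 60 bases. The opening 30 bases of 6 of them are printed in lower case, 5′ to 3′, because these probes carry the largest differences below or are pairs within 1 gene that gave different results.
PTGS2: tgagatatttaaggttgaatgtttgtcctt
PLA2G4A: gaaatggcagcagtttctgatgctgaggca
ALOX5, probe used for the gene: gatgtctattcttgttggagacatgggatg
ALOX5, other probe: tctgagatctagacaccctttcaggaggcc
LTA4H, probe used for the gene: aaagcaagcatgcatcccgtgactgcaatg
LTA4H, other probe: tgatggagaaacacctgacccagaagaccc
The scanner files place the PTGS2 probe on the minus strand at chr1:186641469-186641528 and the PLA2G4A probe on the plus strand at chr1:186957652-186957711 of hg19. The ALOX5 probes lie on the plus strand at chr10:45941417-45941476 and chr10:45936942-45937001. The LTA4H probes lie on the minus strand at chr12:96394767-96394826 and chr12:96415926-96415985. The files name the transcript of the other ALOX5 probe as ENST00000475300 and those of the LTA4H probes as NM_000895 and NM_001256644, so that the probes of a pair were drawn on different transcript models. The place of a probe within exons and untranslated regions was not analysed here.

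The 250 bases upstream of the PTGS2 start are shown because PTGS2 had the largest difference of the 10 genes after IMQ and also between IMQ+DMD and IMQ. They are from RefSeq on GRCh38.p14, at chr1:186680424-186680673 on the minus strand, and the capitals mark the TATAAA motif.
PTGS2 upstream: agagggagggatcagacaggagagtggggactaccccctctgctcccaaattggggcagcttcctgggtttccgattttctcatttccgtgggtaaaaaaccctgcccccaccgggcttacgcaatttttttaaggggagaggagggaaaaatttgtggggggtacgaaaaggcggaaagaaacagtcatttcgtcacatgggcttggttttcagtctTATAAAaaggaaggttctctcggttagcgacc
The motif spans bases -32 to -27 from the start. On either strand, TATAAA is held by 11.5% of 35116 RefSeq windows that run from 250 bases before a start to 50 after it. The same window of PTGS2 has no match on either strand to the motif TGACGT, which is in 7.98% of all windows, to the motif GGGCGG, which is in 45.0%, to the motif TGANTCA, which is in 7.71%, or to the kappaB consensus, which is in 5.91%. No match overlapped a match of another motif in the windows of the members. Among the other members, TATAAA has a match in a window of PTGS1, on the minus strand at bases -208 to -203, and the kappaB consensus has one in the PTGER4 window. GGGCGG has matches in the windows of PTGS1, PTGES, PTGER2, PTGER4, and LTC4S. The window of ALOX5 was not analysed here. A match or its absence describes only these letters.

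Values are the quantile-normalized intensities that the authors deposited, a brightness without a physical unit, and differences are given on the log2 scale. The scanner software marks each probe as well above background or not, which held for 72.0% of probes in Ctrl, 66.6% with IMQ, and 71.9% with IMQ+DMD. The dimmest such probe set the floor of each array at 16.5, 23.8, and 16.9. The SD behind each difference is technical and was taken from probes spotted 10 times on the same array. Its median was 0.43 log2 units at log2 intensities of 2 to 3 and 0.06 at 8 to 9. It covers spotting and scanning, and not cultures, labelling, or treatment. Among the macrophage markers with a probe, 7 of 7 were well above background on every array, while CD68 and LYZ were not analysed here. The log2 of the summed intensity of these markers was 19.28 in Ctrl, 19.03 with IMQ, and 18.98 with IMQ+DMD. CD163 differed by -1.22 and CD14 by -0.71 between IMQ and Ctrl, and by -1.13 and -1.21 between IMQ+DMD and Ctrl, so that some macrophage markers were lower together with the leukotriene genes below. The other 5 differed by -0.38 to 0.04 between IMQ and Ctrl. All 6 genes taken as a check of the IMQ treatment were at least 2-fold higher after IMQ, with a median difference of 3.99. Markers of other cell types were also detected at lower sums, with 3 of 3 T cell, B cell, and mast cell markers, 2 or 3 of 3 keratinocyte markers, and 2 of 3 fibroblast markers well above background on each array, COL1A2 being the one that was not. Over the 3 arrays the log2 of the sum was 11.89 to 12.19 for B cells, 9.04 to 9.23 for T cells, 9.35 to 9.46 for mast cells, 6.72 to 7.36 for keratinocytes, and 7.11 to 7.41 for fibroblasts, and each list but that of the macrophages was lowest on the IMQ array. The part of all these markers in the results was not tested. In RNA of whole cultures, fewer cells that express a gene and less RNA per cell cannot be told apart.

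After IMQ, PTGS2 was higher and ALOX5 and PLA2G4A were lower by at least 2-fold, and the other 7 genes differed by less. Thus 1 of 10 genes was at least 2-fold higher, where 4.17% of all 31849 genes compared were, and 2 of 10 were at least 2-fold lower, where 3.59% of all genes were. By any amount, 3 of 10 members were higher and 7 were lower, where 47.8% of all genes were higher. The median difference of the 10 genes was -0.33 and that of all genes was -0.02. With IMQ+DMD against IMQ, PTGS2 was at least 2-fold lower and no member was at least 2-fold higher. The background shares in that comparison were 1.25% lower and 1.19% higher of 31698 genes, and the median was -0.09 for the members and 0.004 for all genes. By any amount, 3 of 10 members were higher, where 50.8% of all genes were. With IMQ+DMD against Ctrl, PTGS2 was still at least 2-fold higher and ALOX5 at least 2-fold lower among the 9 members compared. The background shares were 3.04% higher and 4.83% lower of 33707 genes, and the medians were -0.48 for the members and 0.05 for all genes. By any amount, 2 of 9 members were higher, where 54.8% of all genes were. The comparisons share arrays, so their differences are not independent of each other.

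**Figure D1:**
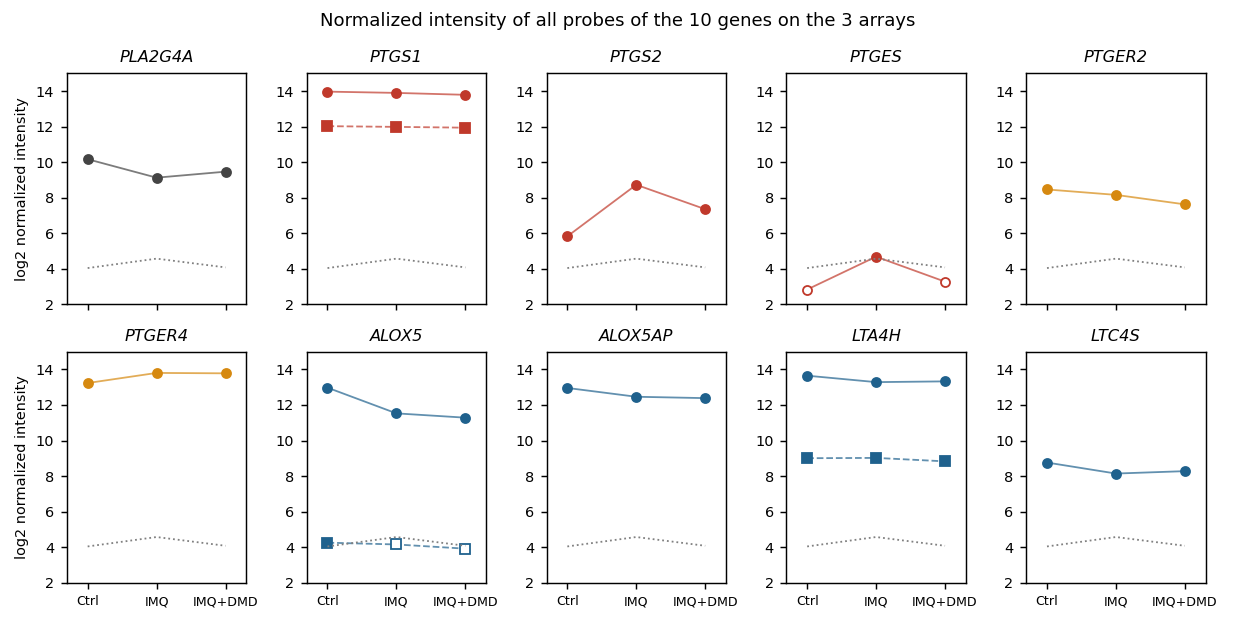
The vertical axis is log2 normalized intensity and the horizontal axis the 3 arrays, with 1 panel for each of the 10 genes. Circles with solid lines are the probe used for the gene, squares with dashed lines are the other probe, open symbols are not well above background, and the dotted line is the floor of each array. PTGS2 goes from 5.83 on Ctrl to 8.73 on IMQ and 7.35 on IMQ+DMD, while ALOX5 goes from 12.97 to 11.53 and 11.28.

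PLA2G4A encodes cytosolic phospholipase A2 alpha, which frees arachidonic acid. Its normalized intensity was 1148 in Ctrl, 559 with IMQ, and 706 with IMQ+DMD. It was thus highest without treatment, lowest after IMQ, and in between with DMD. The difference of IMQ from Ctrl was -1.04 (2.05-fold lower, technical SD 0.07), close to the 2-fold threshold, and normexp background correction gave -0.94. IMQ+DMD was above IMQ by 0.34 (1.26-fold, technical SD 0.07) and below Ctrl, with a difference of -0.70 (1.63-fold). This probe is the only one of the 13 that was spotted 10 times. In Ctrl its 10 spots lay between 10.06 and 10.28 on the log2 scale, with a median of 10.13. With IMQ they lay between 9.06 and 9.25, with a median of 9.11. With IMQ+DMD they lay between 9.40 and 9.59, with a median of 9.46. The ranges of the spots on the 3 arrays did not overlap. The spots of an array share 1 RNA, so this spread covers the array and not the cultures.

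**Figure D2:**
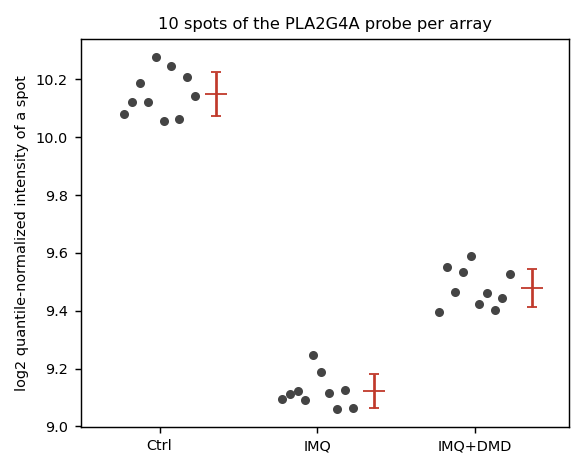
The vertical axis is the log2 quantile-normalized intensity of 1 spot and the horizontal axis the 3 arrays. Each point is 1 of the 10 spots of the PLA2G4A probe, and the red bars are their mean ± SD. The spots lie between 10.06 and 10.28 on Ctrl, 9.06 and 9.25 on IMQ, and 9.40 and 9.59 on IMQ+DMD.

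PTGS1 encodes the constitutive cyclooxygenase. Its brighter probe, at chr9:125155052-125155111 on the plus strand, read 15998 in Ctrl, 15222 with IMQ, and 14123 with IMQ+DMD. It differed by -0.07 between IMQ and Ctrl and by -0.11 between IMQ+DMD and IMQ, each with a technical SD of 0.06, and by -0.18 between IMQ+DMD and Ctrl. The other probe, at chr9:125157536-125157595, read 4162, 4046, and 3924 in the same order. Its differences were -0.04 in both steps, within the technical SD of 0.06. PTGS1 thus had the smallest difference of the 10 genes after IMQ, and its direction after IMQ turned to 0.08 when the arrays were scaled to their 75th percentile.

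PTGS2 encodes the inducible cyclooxygenase, COX-2. Its normalized intensity was 56.7 in Ctrl, 424 with IMQ, and 164 with IMQ+DMD, and it was well above background on all of them. The IMQ array was the highest, and the IMQ+DMD array lay between the other two. PTGS2 with IMQ was 7.47-fold higher than in Ctrl, a difference of 2.90 with a technical SD of 0.22. Of 31849 genes compared, 109 had a difference at or above it. With IMQ+DMD it was 2.59-fold lower than with IMQ, a difference of -1.37 with a technical SD of 0.11, and 153 of 31698 genes were at or below that. It remained 2.88-fold above Ctrl with IMQ+DMD, a difference of 1.53 with a technical SD of 0.23, but with normexp background correction that difference was 0.91, under 2-fold. That correction adds an offset of 50 to every value, which lowers the folds of dim probes. The Ctrl value is a dim one, at 3.44 times the floor of its array, and the IMQ and IMQ+DMD values were 17.8 and 9.68 times theirs. Before normalization between arrays, the background-corrected intensities were 69.2, 374, and 157 in the same order.

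The genes taken as a check of the IMQ treatment can be set beside PTGS2. With IMQ+DMD against IMQ, their differences were -0.55 for TNF, -0.18 for IL1B, -0.64 for IL6, 0.09 for CXCL8, -0.14 for NFKBIA, and -0.67 for CCL20. None of the 6 was as far below its IMQ level as PTGS2 at -1.37. With 1 array for each condition this order was not tested.

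PTGES encodes the microsomal prostaglandin E synthase that works downstream of COX-2. Its probe, at chr9:132501510-132501569 on the minus strand, read 7.14 in Ctrl, 25.7 with IMQ, and 9.70 with IMQ+DMD. It was well above background on the IMQ array alone, at 1.08 times the floor there. Set against the floor, PTGES with IMQ was at least 1.56-fold higher than PTGES in Ctrl, and with IMQ+DMD it was at least 1.52-fold lower than with IMQ. These bounds are 0.64 and -0.60 on the log2 scale, each with a technical SD of 0.67, so neither was larger than the technical noise of such dim probes. IMQ+DMD was not compared with Ctrl, because the probe was not well above background on either array.

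The receptors PTGER2 and PTGER4 encode EP2 and EP4, which both raise cyclic AMP when they bind prostaglandin E2. PTGER2, at chr14:52794430-52794489 on the plus strand, read 353 in Ctrl, 286 with IMQ, and 197 with IMQ+DMD. It was highest in Ctrl and lowest with IMQ+DMD. Its differences were -0.30 for IMQ against Ctrl (technical SD 0.09), -0.53 for IMQ+DMD against IMQ (technical SD 0.11), and -0.84 for IMQ+DMD against Ctrl (1.79-fold lower). PTGER4, at chr5:40693563-40693622 on the plus strand, read 9626, 14280, and 14054 in the same order. It was 1.48-fold higher after IMQ (difference 0.57, technical SD 0.06), and IMQ+DMD differed from IMQ by -0.02, less than the technical SD. After IMQ the receptors thus lay on opposite sides of Ctrl, and neither passed 2-fold.

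In the probe used for each, the 4 leukotriene genes were all lower after IMQ than in Ctrl, by -0.36 to -1.45, with a median difference of -0.56. By any amount, 16628 of all 31849 genes compared were lower. Of 10 housekeeping genes, 7 were also lower and 3 were higher, from -0.53 to 0.32, with a median of -0.10. The differences of LTA4H and ALOX5AP lie within that range. ALOX5 encodes 5-lipoxygenase. Its brighter probe read 8037 in Ctrl, 2950 with IMQ, and 2495 with IMQ+DMD. It was 2.72-fold lower after IMQ (difference -1.45, technical SD 0.06), and 393 of 31849 genes were at or below that. With IMQ+DMD it was again lower than with IMQ, by a further -0.24 (technical SD 0.06), and 3.22-fold lower than in Ctrl (difference -1.69). The other ALOX5 probe read 19.1, 17.8, and 15.1, and was well above background on the Ctrl array alone, at 1.16 times the floor, so it gave no fold for IMQ against Ctrl.

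ALOX5AP encodes FLAP, which presents arachidonic acid to 5-lipoxygenase. It read 7944 in Ctrl, 5638 with IMQ, and 5345 with IMQ+DMD, at chr13:31338155-31338214 on the plus strand. It was 1.41-fold lower after IMQ (difference -0.49, technical SD 0.06), and IMQ+DMD differed from IMQ by -0.08. Like ALOX5, it did not return toward Ctrl on the array with DMD.

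LTA4H encodes the hydrolase that makes leukotriene B4. Its brighter probe read 12824 in Ctrl, 9972 with IMQ, and 10272 with IMQ+DMD. It was 1.29-fold lower after IMQ (difference -0.36, technical SD 0.06). The other LTA4H probe read 514, 520, and 454, with a difference of 0.02 after IMQ, so the lower LTA4H level after IMQ rests on 1 of its probes. Between IMQ+DMD and IMQ the brighter probe differed by 0.04, which turned to -0.12 when the arrays were scaled to their 75th percentile, and the other probe differed by -0.19.

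LTC4S encodes the synthase of leukotriene C4. It read 434 in Ctrl, 282 with IMQ, and 310 with IMQ+DMD. It was 1.54-fold lower after IMQ (difference -0.62, technical SD 0.09), and IMQ+DMD was above IMQ by 0.14. The unevenness of its spot with IMQ, a pixel SD of 24.8% of the mean, exceeded that of 99.3% of 6397 spots of like brightness, although the software did not mark it as an outlier. The file places this probe at chr5:179222983-179223272 on the plus strand of hg19, a span longer than the probe.

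**Figure D3:**
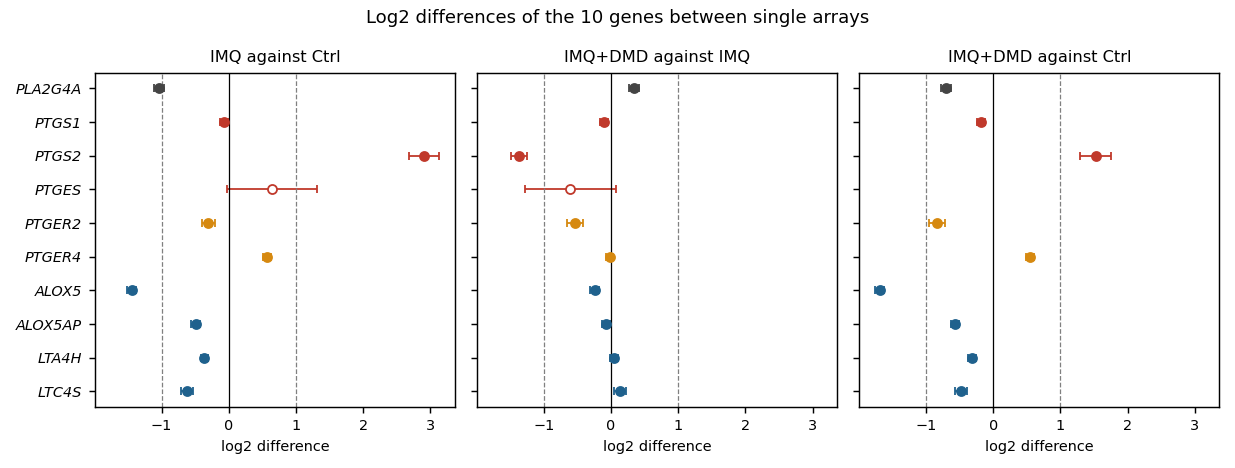
The horizontal axis is the log2 difference between single arrays and the rows are the 10 genes, with 1 panel for each comparison. Bars are the technical SD of spots on an array, open circles are bounds, and dashed lines mark 2-fold. PTGS2 stands at 2.90, -1.37, and 1.53, and all 4 leukotriene genes (blue) are below 0 in IMQ against Ctrl and in IMQ+DMD against Ctrl. In IMQ+DMD against Ctrl, 15212 of all 33707 genes compared were also below 0. Of 10 housekeeping genes, 7 were lower and 3 higher there, from -0.62 to 0.43. ALOX5AP, LTA4H, and LTC4S lie within that range.

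**Figure D4:**
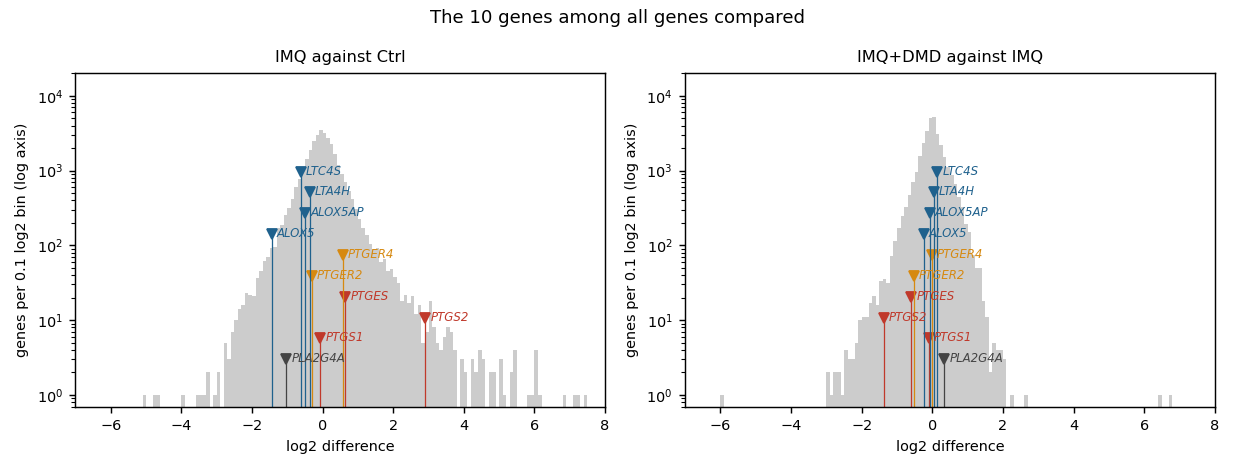
Grey bars count the genes in each step of the log2 difference, on a log axis, with IMQ against Ctrl in the left panel and IMQ+DMD against IMQ in the right, and triangles mark the 10 genes at arbitrary heights. PTGS2 lies in the right tail at 2.90 after IMQ and in the left tail at -1.37 with IMQ+DMD against IMQ, and the other members lie between -1.45 and 0.64.

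Of the wider eicosanoid pathway, 70 of 71 listed genes were on the array, and 62 could be compared between IMQ and Ctrl. At least 2-fold higher were 4 and lower were 3, where 4.17% and 3.59% of all genes were, and the median difference was -0.04. Between IMQ+DMD and IMQ, 1 of 62 was at least 2-fold higher and 0 were lower, where 1.19% and 1.25% of all genes were, with a median of 0.05. Between IMQ+DMD and Ctrl, 4 of 64 were higher and 3 lower, where 3.04% and 4.83% of all genes were, with a median of 0.04.

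Around the release of arachidonic acid, PLA2G7, which encodes the secreted hydrolase of platelet-activating factor, read 9.15 on the log2 scale in Ctrl, 12.61 in IMQ, and 12.74 in IMQ+DMD. Against Ctrl, it differed by 3.46 with IMQ and by 3.59 with IMQ+DMD. MGLL, a lipase that splits the arachidonoyl glycerol 2-AG, read 12.16, 14.00, and 14.01, and was 3.59-fold higher after IMQ. Its other probe gave a difference of 1.92 after IMQ, beside 1.84 for the probe used. Unlike PTGS2, both differed little between IMQ+DMD and IMQ, by 0.13 for PLA2G7 and 0.01 for MGLL. The dim PLA2G4D, another cytosolic phospholipase, read 5.62, 4.89, and 6.09, and differed by 1.20 between IMQ+DMD and IMQ. Its IMQ value lay near the floor of that array, which is 4.57 on the log2 scale. With normexp background correction, 0 genes of the wider list were at least 2-fold higher in that comparison, where 20 of 32518 genes were. Among the terminal prostanoid synthases, FAM213B, which makes prostaglandin F2 alpha, differed by 1.01 after IMQ and by -0.17 between IMQ+DMD and IMQ.

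On the leukotriene side, MGST2, a glutathione transferase that can also make leukotriene C4, read 13.72 in Ctrl, 12.62 in IMQ, and 12.60 in IMQ+DMD on the log2 scale. It was 2.14-fold lower after IMQ, as ALOX5 was lower. CYSLTR1, a receptor of the cysteinyl leukotrienes, read 11.95, 10.57, and 10.62, and was 2.61-fold lower after IMQ. DPEP2, a dipeptidase that turns leukotriene D4 into E4, read 6.93, 5.95, and 5.44, and differed by -0.99 after IMQ and by -1.50 between IMQ+DMD and Ctrl. EPHX2, the soluble epoxide hydrolase, differed by -1.07 after IMQ. ABCC1, which exports leukotriene C4, went the other way, at 8.89, 10.02, and 10.33, and was 2.19-fold higher after IMQ. MGST1 differed by 0.60 after IMQ and by 1.02 between IMQ+DMD and Ctrl.

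The direction of most differences held when the arrays were scaled in other ways. Without normalization between arrays, the median of all genes for IMQ against Ctrl moved to -0.51, and with scaling to spike-in probes it moved to -0.59, so the members are to be read against these medians there. The share of higher genes among all that differed by at least 2-fold in that comparison was 53.8% as reported, 43.9% with 75th percentile scaling, 10.1% without normalization, and 7.74% with spike-in scaling. Between IMQ+DMD and IMQ the same share was 48.7%, 86.7%, 88.5%, and 94.6%. Between IMQ+DMD and Ctrl it was 38.7% as reported, 13.0% without normalization, and 16.1% with spike-in scaling. Over all alternatives run, PTGS2 lay between 2.03 and 2.90 for IMQ against Ctrl and between -1.37 and -1.12 for IMQ+DMD against IMQ. ALOX5 lay between -1.88 and -1.36, ALOX5AP between -0.91 and -0.39, LTA4H between -0.77 and -0.17, and LTC4S between -1.17 and -0.54 for IMQ against Ctrl. PTGER4 lay between 0.18 and 0.70 and PTGER2 between -0.86 and -0.25 in the same comparison.

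**Figure D5:**
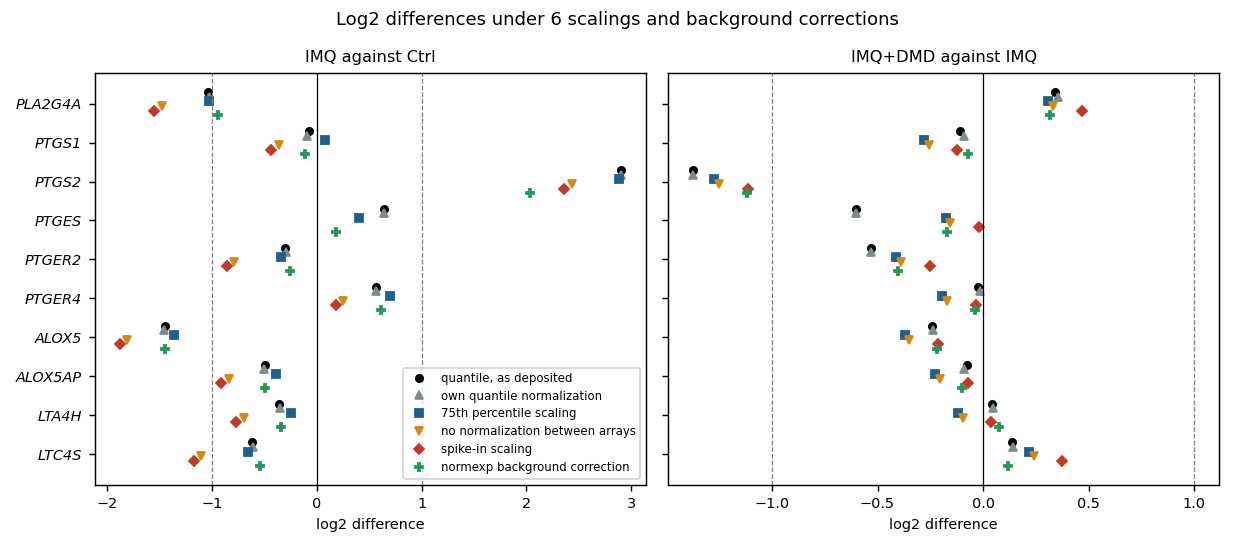
The horizontal axis is the log2 difference and the rows are the 10 genes, with 1 symbol for each of 6 ways to scale or background-correct the arrays, and dashed lines mark 2-fold. For IMQ against Ctrl, PTGS2 stays above 2 and ALOX5 below -1 in each, while PTGS1 changes sign. For IMQ+DMD against IMQ, PTGS2 stays between -1.37 and -1.12, and LTA4H lies on both sides of 0.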

How the data were processed

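RNA of 3 THP-1 macrophage cultures was labelled with Cy3 and hybridised to 3 one-color Agilent arrays on 1 slide. The article describes the experiment as RNA sequencing, but the deposited values are array intensities. The labels give 4 h, while the general methods of the study describe a longer exposure to IMQ.

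The authors deposited the scanner output (Feature Extraction 10.5.1.1, hg19 probe positions) and a table with the raw intensity, the quantile-normalized intensity, and a detection mark for each probe. The mark equalled the well-above-background mark for 58200, 58198, and 58199 of 58201 probes on the Ctrl, IMQ, and IMQ+DMD arrays. Outlier-marked spots (52, 73, and 82) affect only the values recomputed from scanner output. The count of saturated spots was 0. The number of value columns left unused was 0.

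The deposited normalized intensity was converted to log2, and differences were taken between arrays. A probe was compared where the brighter array was well above background. Where the probe was not well above background on the other array, a value below the floor was raised to it, and the difference was then a bound. A bound that opposed the measured direction was left out. The probe with the highest mean log2 value stood for a gene. The technical SD came from the 300 probes with 10 spots. All 10 members were named with all probes, and of the wider list every gene that differed by at least 2-fold in 1 of 3 comparisons. Gene similarity was not ranked, because 3 arrays give 2 independent differences. The number of arrays limits the precision, and no p-values were computed with 1 array for each condition. The members and lists were chosen with earlier results of these data known.

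Alternatives were own quantile normalization, 75th percentile scaling, no normalization, scaling to 8 spike-in probes, normexp with an offset of 50, a stricter and no filter on dim probes, thresholds of 1.5-fold and 4-fold, and other choices of probe. R 4.3.3 with limma 3.58.1 was used for normalization, and numpy 2.4.6, pandas 2.3.3, and matplotlib 3.10.9 in Python 3.11.15 for the rest. Upstream sequences and motif counts are from RefSeq windows on GRCh38.p14, which were not joined to the hg19 positions.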

Additional observations from a re-analysis of the deposited data

How the results depend on the processing

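Over 257 recomputed differences of the 10 genes, 185 moved by less than their technical SD (median 0.07) and 71 moved by more. Many of the 185 could not move, since another filter or probe choice leaves most of these genes with the same value. Most have a single probe and were well above background on every array. The count of 185 is thus no measure of stability under other scalings. The remaining 1, PTGS1 for IMQ against Ctrl, had exceeded its technical SD and changed sign, to 0.081 with 75th percentile scaling. LTA4H for IMQ+DMD against IMQ, at 0.04 within its technical SD, also changed sign, to -0.12 with 75th percentile scaling, -0.10 without normalization, and -0.08 with the mean of all probes. The median of the members for IMQ against Ctrl was -0.79 without normalization, -0.86 with spike-in scaling, and -0.24 with the mean of all probes. For IMQ+DMD against IMQ it was -0.21 with 75th percentile scaling and -0.19 without normalization. Between IMQ+DMD and Ctrl the values were -0.86 without normalization, -0.80 for spike-in scaling, and -0.40 without a filter or floor. The medians of all genes also moved without normalization and with spike-in scaling. The cause was not tested.

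With normexp correction, 1 member was at least 2-fold lower for IMQ against Ctrl and 0 were higher for IMQ+DMD against Ctrl, since PLA2G4A and PTGS2 fell under 2-fold there, and over all genes the calls were 588 higher and 608 lower for IMQ against Ctrl (1329 and 1143 as reported), 20 and 29 for IMQ+DMD against IMQ (376 and 396), and 526 and 816 for IMQ+DMD against Ctrl (1026 and 1627). For IMQ against Ctrl, spike-in scaling gave 521 and 6212 genes, and arrays left without normalization gave 577 and 5155. For IMQ+DMD against Ctrl, 4 members were lower without normalization, where 3400 of 33485 genes were, and 3 under spike-in scaling, where 2965 of 33596 were. With the mean of all probes 0 members were lower, where 1551 of 33736 genes were. ALOX5 is averaged with its dim probe to -0.93 there. Without a filter or floor, 2 members were higher for IMQ against Ctrl (PTGS2 and PTGES), where 2701 of 43317 genes were. In that setting 2 members were lower for IMQ+DMD against IMQ, where 1515 of 43317 genes were. A threshold of 1.5-fold gave 2 higher and 3 lower members for IMQ against Ctrl (3394 and 3392 of 31849 genes), 2 lower for IMQ+DMD against IMQ (1728 of 31698), and 3 lower for IMQ+DMD against Ctrl (3863 of 33707). A threshold of 4-fold gave 0 lower members in all 3 comparisons, where 112 of 31849, 34 of 31698, and 219 of 33707 genes were. It gave 1 higher member for IMQ against Ctrl (PTGS2), where 289 of 31849 genes were. For IMQ+DMD against Ctrl it gave 0 higher, where 210 of 33707 genes were. Fewer or more calls follow there from the threshold itself.

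No paired analysis was possible because each condition had 1 array. For the same reason no replicate was left out. A block for the slide was not run, because all arrays lay on 1 slide. The signal over background limits PTGES and the other ALOX5 probe, which were above it on 1 array only, and the Ctrl level of PTGS2.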
